A study of Mus musculus with 9 samples.

Results

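The genes described here are the constant-region genes of the mouse immunoglobulin heavy and light chains together with the J chain, chosen by name: Ighm, Ighd, Ighg1, Ighg2b, Ighg2c, Ighg3, Igha, Igkc, Iglc2 and Jchain, 10 of the 53379 gene IDs counted. RNA-seq gene counts were obtained from mouse knee joints in a surgical model of osteoarthritis, anterior cruciate ligament transection (ACLT), in which the joint is made unstable by cutting a ligament. The PC2 and Luc joints came from male C57BL/6 mice that underwent ACLT at 8 weeks of age, were given a lentivirus into the joint 1 week later and were collected 8 weeks after the virus. The virus expressed PC2 in the PC2 group and Luc in the Luc group, so both groups carry the surgery and an injected virus. Non surgery joints were not operated, the labels name no virus for them, and the age of those mice is not given in the sources used here. Luc against Non surgery therefore asks what surgery plus a lentivirus changed, together with any difference in the age or handling of the mice. PC2 against Luc asks what the expressed protein changed. Each group has 3 libraries, which the labels describe as technical repeats of 1 RNA mixture, and the number of mice in a mixture is not given. The p-values below thus measure the spread between libraries of 1 pool, not the spread between animals, and mouse-to-mouse variation cannot be told apart from the treatment.

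An antibody has heavy chains, whose constant region sets the class (IgM, IgD, IgG, IgE or IgA), and light chains of the kappa or lambda kind. A B cell first makes IgM and IgD from one long transcript of the locus and can later switch to IgG or IgA by deleting the DNA in between. After it matures into a plasma cell it secretes the antibody, and J chain links IgM and IgA units into larger forms. Plasma cells and B cells of several stages reside in bone marrow, and B-lineage cells can also enter inflamed synovium.

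Gene counts summed to between 17835989 and 19004316 per library, and 17478 genes passed the filter on low counts, all 10 immunoglobulin genes among them. Together these 10 genes took 0.142 to 0.148% of gene counts in PC2, 0.204 to 0.221% in Luc and 0.247 to 0.260% in Non surgery libraries. Levels are in CPM, counts per 1000000 counts that a library held in the 17478 genes past the filter, scaled by TMM factors. A call is an adjusted p under 0.05 from edgeR's quasi-likelihood test. Joint tissue genes such as Col2a1 and Acan were present in all groups, with summed levels of 26959 to 27316 CPM in PC2, 20888 to 21707 CPM in Luc and 5494 to 6165 CPM in Non surgery joints. The levels of other marker lists differed between groups too. The 9 skeletal muscle genes summed to 28306 to 28400.0 CPM in PC2, 23807 to 24309 CPM in Luc and 55872 to 57995 CPM in Non surgery joints. The 9 erythroid genes summed to 15280.0 to 15574 CPM in PC2, 13781 to 16080.0 CPM in Luc and 24523 to 26425 CPM in Non surgery joints, and the 10 neutrophil genes to 11570.0 to 11789 CPM in PC2, 10794 to 11365 CPM in Luc and 13377 to 13735 CPM in Non surgery joints. No gene of these 4 lists was at 0 in a group. Whether unequal amounts of muscle, marrow or joint tissue play a part in the immunoglobulin differences was not tested.

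The immunoglobulin genes moved in different directions rather than as a block. In Luc against Non surgery joints 4 of the 10 rose (31.1% of all tested genes did), 4 fell (27.7%) and 2 did not pass the test, so 8 were called in either direction, against 58.8% of all tested genes. Changes of at least 2-fold were called upward in 2 genes (9.43% of all tested genes) and downward in 3 (6.32%). The risers were Ighg1, Ighg2c, Ighg2b and Iglc2, and Ighm, Ighd, Ighg3 and Igkc fell. The libraries of these groups did not overlap for 8 of the 10 genes, against 62.9% of all tested genes, and the median log2 fold change was -0.06, against 0.02 over all genes. In PC2 against Luc joints 7 of the 10 fell (18.6% of all tested genes did), 1 rose (16.1%) and 2 did not pass, so 8 were called in either direction, against 34.7% of all tested genes. Changes of at least 2-fold were called upward in 1 gene (1.3% of all tested genes) and downward in 1 (2%). The 7 that fell were Ighg1, Igha, Ighg2c, Jchain, Igkc, Ighd and Ighm, and Ighg3 was the one that rose. The libraries did not overlap for 9 of the 10 genes, against 48% of all genes, with a median log2 fold change of -0.39 against 0.01. In PC2 against Non surgery joints 6 fell (31.2% of all tested genes), 3 rose (31.5%) and 1 was not called, so 9 were called in either direction, against 62.7% of all tested genes. The libraries did not overlap for 9 genes (66% of all), 4 were at least 2-fold lower (6.53% of all) and none at least 2-fold higher (9.83%), and the median log2 fold change was -0.79 against 0.01. Each group enters 2 of these comparisons, so their values are not independent. In bulk tissue, fewer cells of a type and less RNA per cell cannot be told apart.

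**Figure D1:**
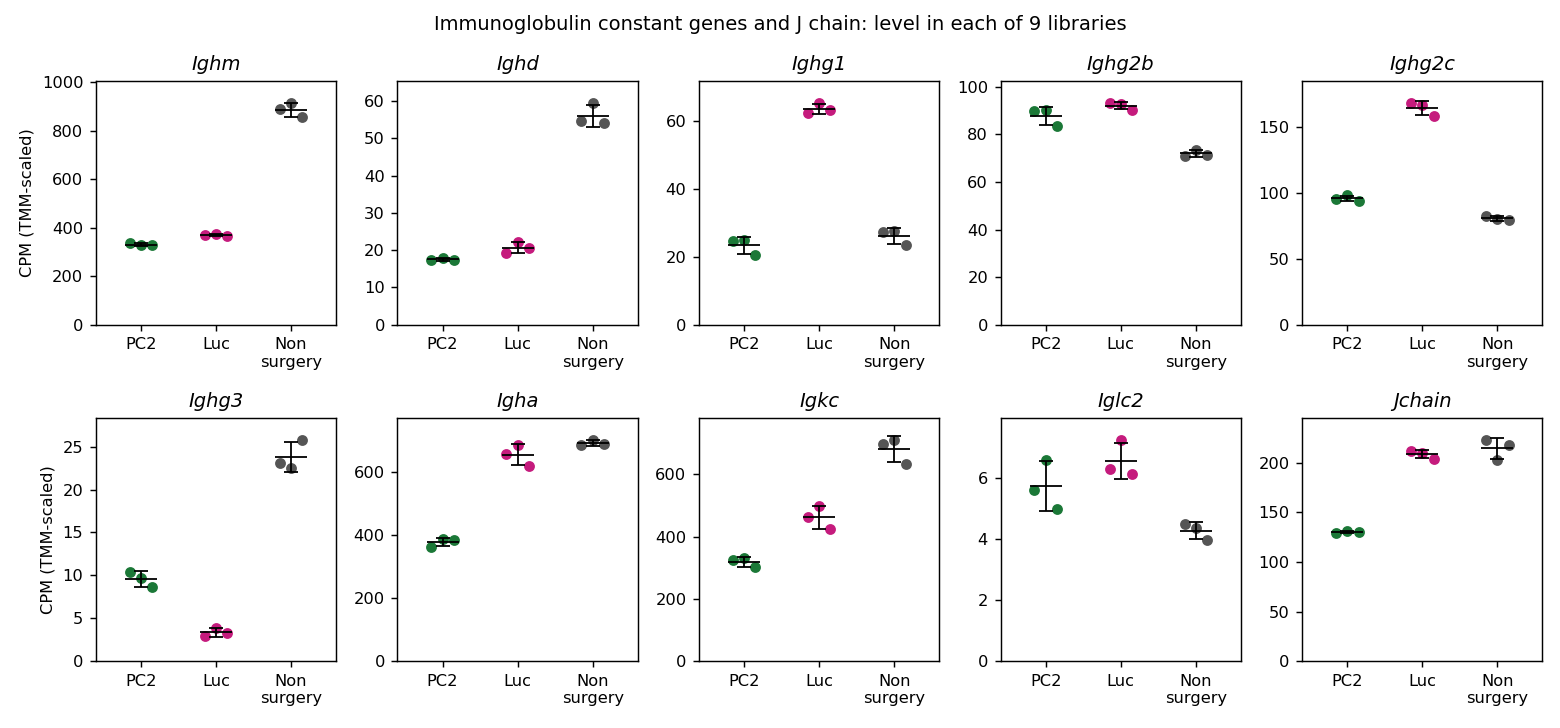
Level of each of the 10 genes in CPM (TMM-scaled, linear axes from 0, one scale per panel) in the 3 PC2, 3 Luc and 3 Non surgery libraries. Points are libraries, and the bars are the mean and SD of 3 technical repeats of 1 RNA pool. Ighm and Ighd were highest in Non surgery joints, Ighg1 and Ighg2c in Luc joints, and Ighg3 was lowest in Luc joints, with no overlap between the named group and the others.

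Ighm, on the minus strand at chr12:113418558-113422730 (GRCm38), encodes the constant region of IgM, the class of the surface receptor of naive B cells. It stood at 335, 327 and 326 CPM in the PC2 libraries, 369, 372 and 366 CPM in Luc and 888, 913 and 855 CPM in Non surgery. The 3 groups did not overlap, and the Non surgery libraries stood far above the other 6. The Luc level was 2.40-fold lower than that of Non surgery joints (log2 fold change -1.26 ± 0.0315, adjusted p = 2.49e-15). PC2 joints were a further 1.12-fold below Luc joints (log2 fold change -0.16 ± 0.0312, adjusted p = 7.10e-04) and 2.68-fold below Non surgery joints (log2 fold change -1.42).

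Ighd, which lies next to Ighm at chr12:113406604-113416324 and supplies the IgD that mature naive B cells carry beside IgM, had the same order. Its levels were 17.4, 17.9 and 17.3 CPM in PC2, 19.3, 22.2 and 20.6 CPM in Luc and 54.7, 59.4 and 54.1 CPM in Non surgery libraries. The PC2 and Luc libraries were close but did not overlap, and both lay below every Non surgery library. Ighd fell 2.71-fold in Luc against Non surgery joints (log2 fold change -1.44 ± 0.0604, adjusted p = 2.34e-12) and 3.20-fold in PC2 against Non surgery joints (log2 fold change -1.68). The PC2 against Luc step was small (log2 fold change -0.24 ± 0.0662, adjusted p = 0.0101) and did not pass without Luc replicate 2 (log2 fold change -0.19, adjusted p = 0.0591). Per kb of exon, the Ighd level was 5.28 ± 0.129% of the Ighm level in PC2, 5.56 ± 0.363% in Luc and 6.28 ± 0.174% in Non surgery joints (SD, n = 3 libraries each). With the shorter transcript of each gene the ratio was 9.89 ± 0.242% in PC2, 10.4 ± 0.682% in Luc and 11.8 ± 0.326% in Non surgery joints, so its size depends on the length used. Gene counts do not separate the membrane and secreted forms of any heavy chain.

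The 4 IgG subclass genes lie between Ighd and Igha on chromosome 12, in the order Ighg3, Ighg1, Ighg2b, Ighg2c, and are similar in sequence. Their exon for the CH1 domain, 291 bases in each, was 88.3% identical between Ighg1 and Ighg2b, 87.6% between Ighg2b and Ighg2c, and 78.4% to 79.0% between Ighg3 and the others. The hinge exon is shown because its length and sequence tell the 4 genes apart. The hinge is the flexible stretch between the antigen-binding arms and the tail of the antibody. Capitals mark the hinge exon and lower case the 12 transcript bases on either side, from GENCODE M21 transcripts (GRCm38, genes on the minus strand, sequence given in the sense of the transcript). The hinge exons occupy chr12:113329844-113329882 in Ighg1, chr12:113307261-113307326 in Ighg2b, chr12:113288263-113288325 in Ighg2c and chr12:113360529-113360576 in Ighg3.
Ighg1: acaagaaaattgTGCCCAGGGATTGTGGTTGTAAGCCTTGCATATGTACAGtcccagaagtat
Ighg2b: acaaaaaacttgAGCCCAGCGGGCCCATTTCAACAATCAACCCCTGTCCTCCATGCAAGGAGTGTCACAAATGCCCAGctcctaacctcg
Ighg2c: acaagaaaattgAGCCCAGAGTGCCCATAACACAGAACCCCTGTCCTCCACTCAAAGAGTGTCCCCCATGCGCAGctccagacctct
Ighg3: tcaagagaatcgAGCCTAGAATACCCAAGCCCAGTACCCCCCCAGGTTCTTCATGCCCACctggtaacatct
The Ighg1 hinge is the shortest at 39 bases, against 66 in Ighg2b, 63 in Ighg2c and 48 in Ighg3. Of all stretches of 50 bases in the annotated transcripts, 0.393% in Ighg1, 4.15% in Ighg2b, 5.49% in Ighg2c and 1.58% in Ighg3 also occurred in another gene, so a small part of the Ighg2b and Ighg2c reads could be shared out or dropped in counting.

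Ighg1, at chr12:113325240-113330523, encodes the subclass made in interleukin-4-driven responses. It had 24.5, 25.0 and 20.5 CPM in PC2, 62.4, 65.2 and 63.0 CPM in Luc and 27.3, 27.5 and 23.6 CPM in Non surgery libraries. Every Luc library was higher than every other library, while PC2 and Non surgery libraries overlapped. Ighg1 rose 2.43-fold in Luc against Non surgery joints (log2 fold change 1.28 ± 0.0701, adjusted p = 7.80e-11) and was 2.72-fold lower in PC2 than in Luc joints (log2 fold change -1.44 ± 0.0700, adjusted p = 2.22e-10). Between PC2 and Non surgery joints it did not pass the test (log2 fold change -0.16 ± 0.0757, adjusted p = 0.0719), and 4 of 13 alternatives called it lower. These were no low-count filter (adjusted p = 0.0352), the replicate block (adjusted p = 0.0335), and leaving out PC2 replicate 2 (adjusted p = 0.0362) or Non surgery replicate 3 (adjusted p = 0.0153).

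Ighg2c, at chr12:113285325-113288932, encodes the subclass that interferon gamma induces in C57BL/6 mice. It stood at 94.9, 97.9 and 93.9 CPM in PC2, 168, 166 and 158 CPM in Luc and 82.4, 79.9 and 79.0 CPM in Non surgery libraries. The groups did not overlap, with Luc highest and PC2 in between. The Luc level was 2.04-fold that of Non surgery joints (log2 fold change 1.03 ± 0.0385, adjusted p = 5.25e-13), and the PC2 level was 1.72-fold lower than that of Luc joints (log2 fold change -0.78 ± 0.0380, adjusted p = 2.23e-10). PC2 joints remained 1.19-fold above Non surgery joints (log2 fold change 0.25).

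Ighg2b, at chr12:113302965-113307933, encodes a subclass to which transforming growth factor beta can direct switching. Its levels were 89.7, 90.1 and 83.5 CPM in PC2, 93.1, 92.6 and 90.4 CPM in Luc and 71.0, 73.5 and 71.4 CPM in Non surgery libraries. The PC2 and Luc libraries were all above the Non surgery ones and lay next to each other without overlap. It rose 1.28-fold in Luc (log2 fold change 0.35 ± 0.0410, adjusted p = 1.17e-06) and 1.22-fold in PC2 joints (log2 fold change 0.29), each against Non surgery joints. The PC2 against Luc difference did not pass the test (log2 fold change -0.07 ± 0.0403, adjusted p = 0.209).

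Ighg3, at chr12:113356224-113361232, encodes the subclass typical of responses to carbohydrate antigens and ran opposite to Ighg1 and Ighg2c in both comparisons with Luc. It had 10.4, 9.69 and 8.65 CPM in PC2, 2.91, 3.91 and 3.34 CPM in Luc and 23.1, 22.5 and 25.8 CPM in Non surgery libraries. The Luc libraries held 56 to 74 counts each, the PC2 libraries 165 to 199 and the Non surgery libraries 386 to 429, and no groups overlapped. Ighg3 was 7.01-fold lower in Luc than in Non surgery joints (log2 fold change -2.81 ± 0.113, adjusted p = 1.25e-12), where the other 3 subclasses were higher. It was 2.83-fold higher in PC2 than in Luc joints (log2 fold change 1.5 ± 0.124, adjusted p = 1.24e-07), where Ighg1 and Ighg2c were lower, and 2.48-fold lower in PC2 than in Non surgery joints (log2 fold change -1.31). The summed levels of skeletal muscle, neutrophil and T cell genes had the same order of groups, and their part in the Ighg3 difference was not tested.

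**Figure D2:**
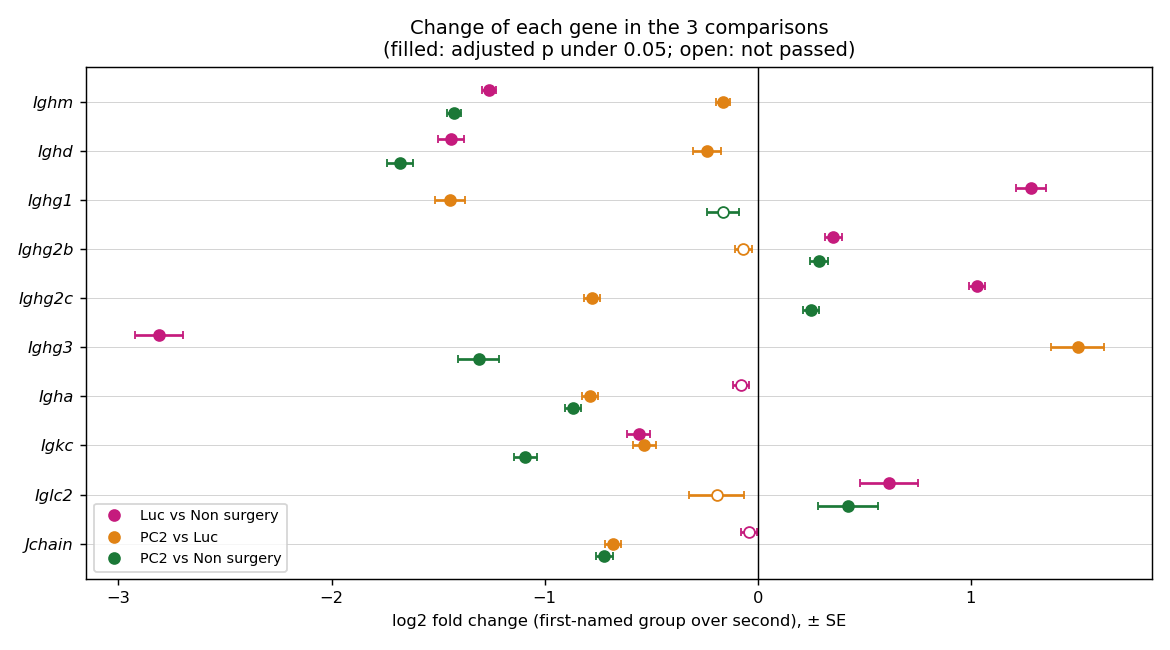
Fitted log2 fold change of each of the 10 genes in the 3 comparisons, with bars of 1 standard error from edgeR's quasi-likelihood fit of all 9 libraries. Values run from -2.81 (Ighg3) to 1.28 (Ighg1) in Luc against Non surgery joints and from -1.44 (Ighg1) to 1.5 (Ighg3) in PC2 against Luc joints.

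Igha, at chr12:113254830-113260236, encodes IgA, the class of mucosal secretions that long-lived marrow plasma cells also make. It stood at 364, 389.5 and 385 CPM in PC2, 657, 687 and 621 CPM in Luc and 686, 703 and 688 CPM in Non surgery libraries. The PC2 libraries stood apart below all others, and 1 Luc library reached into the Non surgery range. Igha was 1.73-fold lower in PC2 than in Luc joints (log2 fold change -0.79 ± 0.0378, adjusted p = 1.97e-10) and 1.82-fold lower than in Non surgery joints (log2 fold change -0.87). Between Luc and Non surgery joints it did not pass (log2 fold change -0.08 ± 0.0375, adjusted p = 0.0792), and this call depends on the processing. Of 13 alternatives 7 called it lower, at adjusted p between 0.0159 and 0.0492, 5 left it not passed, and scaling by library size only turned the log2 fold change to 0.08 without passing.

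Jchain, at chr5:88519809-88527891 on the minus strand, encodes the small protein that joins IgM and IgA units through the tails of their secreted heavy chains. The last coding bases of the 2 heavy chains are shown because they hold this junction. Capitals mark the next-to-last codon, for the cysteine known to bond in these polymers, and the final 3 bases are the stop codon (GENCODE M21, GRCm38, minus strand, chr12:113420867-113420929 for Ighm and chr12:113258768-113258830 for Igha).
Ighm: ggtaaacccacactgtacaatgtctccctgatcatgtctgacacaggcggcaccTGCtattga
Igha: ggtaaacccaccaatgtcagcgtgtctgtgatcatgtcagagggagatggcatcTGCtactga
These 63 bases were 69.8% identical. Jchain had 129, 132 and 130.1 CPM in PC2, 212, 209.8 and 204 CPM in Luc and 223, 202 and 218 CPM in Non surgery libraries. As with Igha, the PC2 libraries stood below all others, and the Luc and Non surgery libraries overlapped. Jchain fell 1.6-fold in PC2 against Luc joints (log2 fold change -0.68 ± 0.0384, adjusted p = 1.29e-09) and 1.65-fold against Non surgery joints (log2 fold change -0.72). It did not pass between Luc and Non surgery joints (log2 fold change -0.04 ± 0.0380, adjusted p = 0.367), where library-size scaling gave a call in the other direction (log2 fold change 0.12, adjusted p = 0.0107) and leaving out Non surgery replicate 2 a lower call (log2 fold change -0.09, adjusted p = 0.0221). Over the 9 libraries Igha and Jchain were the pair of members with the most similar pattern, at a Euclidean distance of 0.249 on centred log2 CPM, followed by Ighm and Ighd at 0.346 and by Ighg2b and Iglc2 at 0.429.

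The light chain genes differed from each other. Igkc, the single kappa constant gene at chr6:70726435-70726966 on the plus strand, had 324, 331 and 302 CPM in PC2, 463, 498 and 425 CPM in Luc and 697, 711 and 633 CPM in Non surgery libraries. Its groups stepped down without overlap, with PC2 lowest. Igkc was 1.47-fold lower in Luc than in Non surgery joints (log2 fold change -0.56 ± 0.0542, adjusted p = 1.39e-07), 1.45-fold lower in PC2 than in Luc joints (log2 fold change -0.53 ± 0.0544, adjusted p = 1.33e-06) and 2.13-fold lower in PC2 than in Non surgery joints (log2 fold change -1.09).

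Iglc2, a lambda constant gene at chr16:19198396-19200351 on the minus strand, was scarce, at 66 to 137 counts per library. It had 5.61, 6.60 and 4.98 CPM in PC2, 6.29, 7.24 and 6.14 CPM in Luc and 4.50, 4.37 and 3.97 CPM in Non surgery libraries. The PC2 and Luc libraries overlapped and both lay above Non surgery. It rose 1.53-fold in Luc against Non surgery joints (log2 fold change 0.62 ± 0.138, adjusted p = 0.0011) and did not pass in PC2 against Luc joints (log2 fold change -0.19 ± 0.129, adjusted p = 0.269). The rise in PC2 against Non surgery joints (log2 fold change 0.42 ± 0.140, adjusted p = 0.0156) no longer passed under DESeq2 (adjusted p = 0.0717), without PC2 replicate 2 (adjusted p = 0.0915) or without Non surgery replicate 3 (adjusted p = 0.0601). Of its stretches of 50 bases, 7.65% also occur in Iglc3, and 38 of its 612 exon bases overlap the joining segment Iglj2, so its counts are less certain than those of Igkc.

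Other constant genes outside the 10 were also counted. The lambda gene Iglc1 had 5.13, 7.15 and 6.40 CPM in PC2, 7.48, 8.41 and 9.05 CPM in Luc and 12, 13.1 and 14.1 CPM in Non surgery libraries, which did not overlap. It fell in Luc against Non surgery joints (log2 fold change -0.65, adjusted p = 1.38e-04) and in PC2 against Luc joints (log2 fold change -0.41, adjusted p = 0.0178). Iglc3, near 1 CPM, was higher in PC2 joints at 1.71 CPM than in Luc joints at 0.933 CPM (log2 fold change 0.87, adjusted p = 0.0199). Ighe, the IgE gene, did not pass the filter, with 0, 1 and 0 counts in PC2, 2, 2 and 0 in Luc and 4, 8 and 3 in Non surgery libraries. Iglc4 did not pass the filter either, and no counted gene ID carried the name Ighg2a.

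Levels were set against each other per kb of annotated exon, since the genes differ in length. Igkc was the most abundant of the 10 in every group, at 600.2 ± 28.3 CPM per kb in PC2, 869 ± 68.7 in Luc and 1279 ± 78.2 in Non surgery joints (SD, n = 3 libraries each). Ighm came next in PC2 and Non surgery joints, at 175 ± 2.63 and 469 ± 15.3 CPM per kb, and Igha was next in Luc joints at 246 ± 12.5 CPM per kb. That order rests on the length used, because with the shorter transcript of each gene Igha stood above Ighm in every group, for example at 629 ± 8.04 against 593 ± 19.3 CPM per kb in Non surgery joints. Ighg2c and Jchain held the next places in every group, in changing order. Ighg3 was lowest in PC2 joints at 3.82 ± 0.354 and in Luc joints at 1.35 ± 0.200 CPM per kb. In Non surgery joints Iglc2 was lowest at 6.99 ± 0.453 CPM per kb, while Ighg3 at 9.47 ± 0.693 and Ighg1 at 10.1 ± 0.868 did not differ from each other beyond their spread. The same holds in PC2 joints for Iglc2, Ighd and Ighg1, which had 9.36 ± 1.33, 9.22 ± 0.162 and 9.01 ± 0.953 CPM per kb, and in Luc joints for Iglc2 at 10.7 ± 0.976 and Ighd at 10.9 ± 0.755 CPM per kb.

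The make-up of the heavy chain pool, as shares of summed CPM per kb of exon, does not depend on how the libraries were scaled. Ighm made up 40.2, 38.6 and 39.4% in the PC2 libraries, 30.6, 30.2 and 31.5% in Luc and 54.4, 54.6 and 53.6% in Non surgery. The Non surgery libraries were highest and the Luc libraries lowest, without overlap. The 4 IgG genes together held 26.5 ± 0.623% in PC2, 28.9 ± 0.316% in Luc and 12.4 ± 0.229% in Non surgery joints. Igha held 32.0 ± 1.02% in PC2, 38.6 ± 0.845% in Luc and 30.0 ± 0.450% in Non surgery joints. Both operated groups thus had larger IgG and IgA shares and a smaller IgM share than Non surgery joints on this scale. With the shorter transcript of each gene, Ighm held 28.2 ± 0.719% in PC2, 21.3 ± 0.548% in Luc and 40.2 ± 0.511% in Non surgery joints. Igha then held 44.1 ± 1.23% in PC2, 51.3 ± 0.884% in Luc and 42.7 ± 0.503% in Non surgery joints, and the PC2 and Non surgery libraries overlapped. All IgG held 25.0 ± 0.812% in PC2, 25.2 ± 0.369% in Luc and 12.4 ± 0.180% in Non surgery joints, with PC2 and Luc overlapping.

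Within IgG, Ighg2c was the largest part in every group, at 61.3 ± 1.11% in PC2, 67.2 ± 0.540% in Luc and 56.6 ± 0.598% in Non surgery joints. With the shorter transcript of each gene it stayed largest, at 44.1 ± 1.15% in PC2, 50.5 ± 0.613% in Luc and 39.5 ± 0.582% in Non surgery joints. Ighg2b then held 40.3 ± 0.236% in PC2, 28.3 ± 0.232% in Luc and 35.2 ± 0.666% in Non surgery joints. The size of the Ighg2c part thus depends on the length used, its annotated exons being the shortest of the IgG genes at 1326 bases. Per kb of exon, Ighg1 was 7.64 ± 0.574% in PC2, 13.3 ± 0.369% in Luc and 9.41 ± 0.706% in Non surgery joints. Ighg3 was 3.24 ± 0.233% in PC2, 0.733 ± 0.107% in Luc and 8.85 ± 0.752% in Non surgery joints, so its part was smallest where that of Ighg1 was largest. Iglc2 as a share of Iglc2 plus Igkc was 1.53 ± 0.151% in PC2, 1.22 ± 0.0447% in Luc and 0.544 ± 0.0128% in Non surgery joints. With Iglc1 and Iglc3 counted too, an alternative added after seeing the data, the lambda share was 4.28 ± 0.441% in PC2, 3.47 ± 0.341% in Luc and 2.90 ± 0.286% in Non surgery joints, closer together, and the PC2 and Luc libraries overlapped. Light chain levels per heavy chain level were 137 ± 5.33% in PC2, 138 ± 6.96% in Luc and 148 ± 6.09% in Non surgery joints, with SD ranges that overlap. With the shorter transcript of each gene they were 78.2 ± 3.12% in PC2, 76.0 ± 3.47% in Luc and 87.3 ± 3.86% in Non surgery joints, where the Non surgery libraries lay above all others, so both the size of this ratio and its separation between groups depend on the length used. Jchain per Ighm plus Igha was 16.3 ± 0.0275% in PC2, 18.8 ± 0.390% in Luc and 11.7 ± 0.817% in Non surgery joints. For the 7 heavy chain shares of the whole pool and the Iglc2 share, all per kb of exon, the libraries did not overlap in any of the 3 comparisons. Each of these 24 exact two-sided permutation tests gave p = 0.1 and adjusted p = 0.1, the smallest that 3 libraries against 3 allow, so none could pass 0.05.

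**Figure D3:**
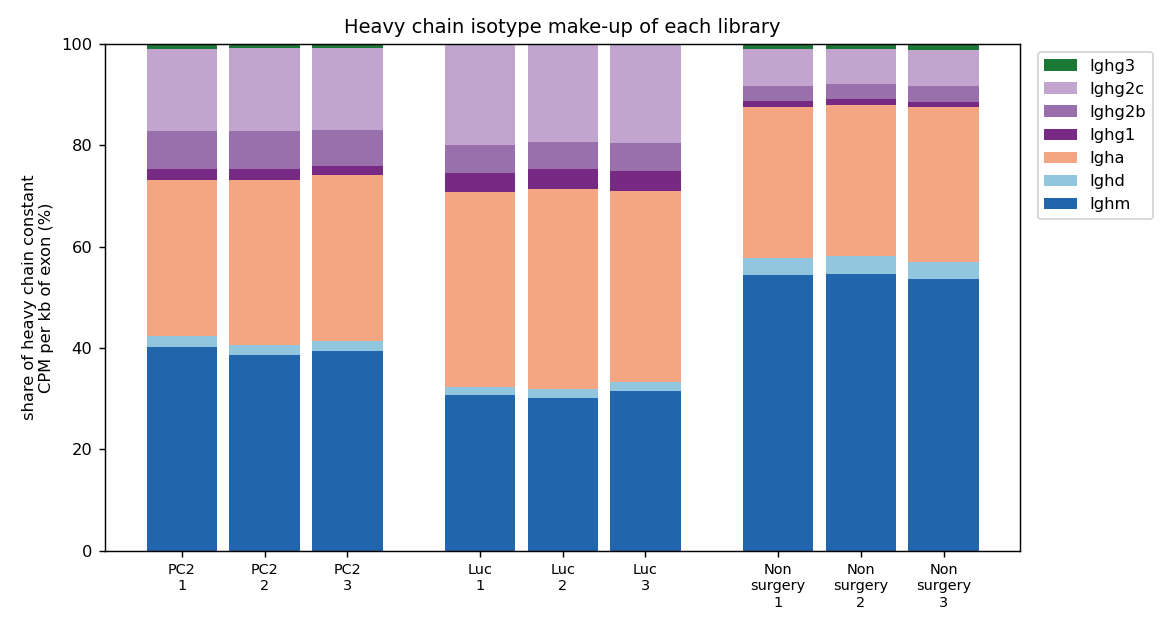
Stacked bars of the 7 heavy chain genes in percent of their summed CPM per kb of exon, one bar for each PC2, Luc and Non surgery library. The Ighm block averages 39.4% in PC2, 30.8% in Luc and 54.2% in Non surgery libraries, and the purple and green IgG blocks together average 26.5% in PC2, 28.9% in Luc and 12.4% in Non surgery libraries. The sizes of the blocks depend on the transcript length used.

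Variable (V) segments are a second readout of the same transcripts, since each antibody mRNA carries 1 of many V segments joined to its constant region, and their counts were not used to choose the genes. The annotation holds 115 heavy chain, 104 kappa and 3 lambda segments, of which 80, 75 and 3 passed the filter. Summed heavy chain segments stood at 248 ± 1.49 CPM in PC2, 467 ± 37.9 CPM in Luc and 583 ± 5.58 CPM in Non surgery joints, and kappa segments at 236 ± 3.25 CPM in PC2, 425 ± 20.7 CPM in Luc and 575 ± 7.54 CPM in Non surgery joints (SD, n = 3 libraries each). In PC2 against Luc joints 46 of the 80 heavy chain segments fell and 4 rose, 30 were not called, and the median log2 fold change was -0.85. Among kappa segments 42 of 75 fell and 4 rose, 29 were not called, and the median was -0.68. In PC2 against Non surgery joints 55 heavy chain segments fell and 3 rose (median -1.03), and 52 kappa segments fell and 7 rose (median -0.89). In Luc against Non surgery joints the segments were divided, with 28 heavy chain segments up, 30 down and 22 not passed (median -0.02), and 25 kappa segments up, 29 down and 21 not passed (median 0.07). All tested genes were divided in that comparison too, with 31.1% up and 27.7% down. Of all tested genes, 18.6% fell and 16.1% rose in PC2 against Luc joints, and 31.2% fell and 31.5% rose in PC2 against Non surgery joints. The lambda segments summed to 24.4 ± 0.0914 CPM in PC2, 31.3 ± 3.21 CPM in Luc and 30.9 ± 2.98 CPM in Non surgery joints. Segments with at least 10 counts numbered 65 to 67 per PC2 library, 75 to 79 per Luc library and 76 to 78 per Non surgery library for the heavy chain. This cut is not equal between groups, since heavy chain segments held 4714 to 4866 counts in PC2, 8079 to 9325 in Luc and 9631 to 10233 in Non surgery libraries. Heavy chain segments with any count numbered 93 to 96 in PC2, 97 to 104 in Luc and 101 to 102 in Non surgery libraries. V segments resemble one another, so the count of any single one is uncertain.

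Single segments had patterns of their own. Ighv6-3 had 4.61, 3.96 and 4.30 CPM in PC2, 9.72, 8.14 and 10.2 CPM in Luc and 45.4, 46.1 and 37.5 CPM in Non surgery libraries, where it was the most used heavy chain segment. Its log2 fold change was -2.20 in Luc against Non surgery joints and -1.12 in PC2 against Luc joints. Igkv14-126 had 4.98, 5.33 and 5.72 CPM in PC2, 4.83, 5.71 and 5.28 CPM in Luc and 70.4, 73.4 and 74.2 CPM in Non surgery libraries. The PC2 and Luc libraries overlapped there (log2 fold change 0.02, adjusted p = 0.921), and both stood far below Non surgery (log2 fold change -3.76 in PC2 and -3.78 in Luc joints). This segment alone made up 12.6 ± 0.191% of kappa segment CPM in Non surgery joints. Igkv6-23 was highest in Luc joints, at 8.91, 9.28 and 9.76 CPM in PC2, 26.3, 24.6 and 26.8 CPM in Luc and 15.8, 13.3 and 15.3 CPM in Non surgery libraries. Ighv1-26, with 14.5, 14.7 and 15 CPM in PC2, 39.4, 32.7 and 40.3 CPM in Luc and 34.6, 31.7 and 32.4 CPM in Non surgery libraries, fell in PC2 against Luc joints (log2 fold change -1.35). The 10 most used heavy chain segments held 39.7 ± 1.30% of segment CPM in PC2, 40.0 ± 0.575% in Luc and 41.7 ± 0.661% in Non surgery joints.

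Among the remaining segments named for their level, Ighv1-53 had log2 fold changes of -0.88 in Luc against Non surgery joints and -0.71 in PC2 against Luc joints. Igkv10-96 fell in PC2 against Luc joints by 0.63 on the log2 scale and did not pass in Luc against Non surgery joints (log2 fold change 0.09). Among the lambda segments, Iglv1 averaged 17.8 CPM in PC2, 20.9 CPM in Luc and 24.4 CPM in Non surgery joints. Iglv2 averaged 2.36 CPM in PC2, 3.85 CPM in Luc and 2.20 CPM in Non surgery joints. Iglv2 and Iglv3 rose in Luc against Non surgery joints (log2 fold changes 0.80 and 0.60) and fell in PC2 against Luc joints (log2 fold changes -0.70 and -0.64), while Iglv1 did not pass in either.

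**Figure D4:**
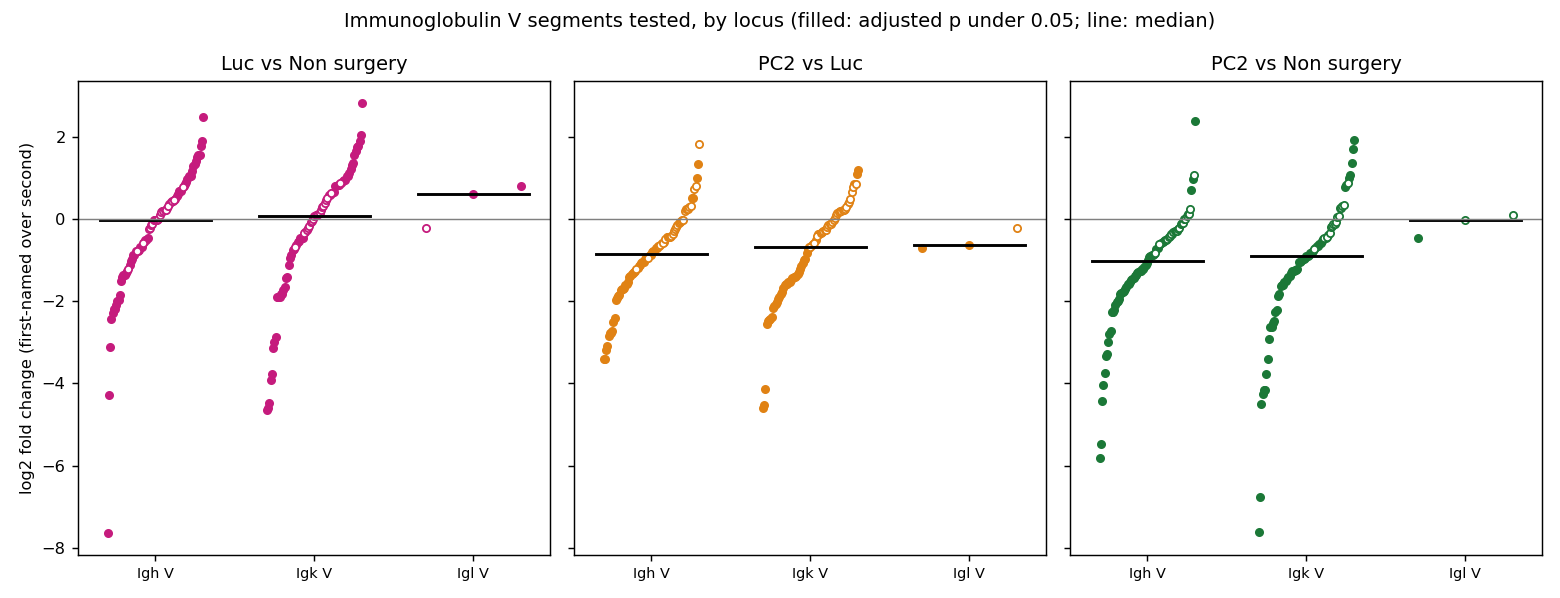
Log2 fold change of each tested V segment (points) of the heavy, kappa and lambda loci in the 3 comparisons, with filled points for segments past an adjusted p of 0.05 and bars at the median. In PC2 against Luc joints the heavy chain and kappa medians are -0.85 and -0.68, and in Luc against Non surgery joints they are -0.02 and 0.07. The 2 lowest points, near the bottom of the axes, are segments with 0 counts in the first-named group, whose fitted values depend on the prior count and are no bounds.

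Genes of antibody-secreting plasma cells were set beside the constant genes. Of 15, 8 rose (31.1% of all tested genes did), 2 fell (27.7%) and 5 did not pass in Luc against Non surgery joints (median log2 fold change 0.61). In PC2 against Luc joints 1 rose (16.1% of all tested genes), 7 fell (18.6%) and 7 did not pass (median -0.22). Their summed level was 622 to 627 CPM in PC2, 654 to 668 CPM in Luc and 502 to 513 CPM in Non surgery libraries, with no gene at 0. Abundant genes weigh most in this sum. Txndc5 alone had 158, 154 and 151 CPM in Luc and 84.9, 85.7 and 87.7 CPM in Non surgery libraries. Which cells made the RNA of these 15 genes was not tested. Sdc1, a plasma cell surface proteoglycan that other cells also carry, averaged 76.9 CPM in Luc and 29.3 CPM in Non surgery joints (log2 fold change 1.39). Prdm1, the transcription factor that drives plasma cell formation, averaged 13.7 CPM in Luc and 5.49 CPM in Non surgery joints (log2 fold change 1.32). Pou2af1, a coactivator of immunoglobulin promoters, fell to 36.0 CPM in PC2, against 52.8 CPM in Luc joints (log2 fold change -0.55), and Fkbp11, an endoplasmic reticulum folding factor, rose to 6.80 CPM in PC2, against 4.50 CPM in Luc joints (log2 fold change 0.60). Mzb1, a chaperone for IgM assembly named after its values were seen, did not pass in any comparison, at log2 fold changes of 0.16 in Luc against Non surgery joints and -0.17 in PC2 against Luc joints. Also named after the values were seen, Derl3 had 2.81, 3.22 and 2.37 CPM in Luc and 2.70, 2.88 and 3.30 CPM in Non surgery libraries, which overlapped. Xbp1 was lower in Luc libraries, at 150, 154 and 149 CPM, than in Non surgery libraries, at 171, 173 and 164 CPM.

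Of 16 mature B cell genes, 9 rose (31.1% of all tested genes did), 6 fell (27.7%) and 1 did not pass in Luc against Non surgery joints. In PC2 against Luc joints none rose (16.1% of all tested genes), 13 fell (18.6%) and 3 did not pass (median log2 fold change -0.42). Their summed level was 301 to 313 CPM in PC2, 399 to 407 CPM in Luc and 289 to 301 CPM in Non surgery libraries. The largest falls in Luc against Non surgery joints were in Fcer2a (CD23), Cr2 (CD21) and Cxcr5, receptors of mature B cells. Fcer2a averaged 4.8 CPM in Luc and 23.0 CPM in Non surgery joints (log2 fold change -2.26), Cr2 2.07 CPM in Luc and 7.84 CPM in Non surgery joints (log2 fold change -1.92), and Cxcr5 2.01 CPM in Luc and 6.88 CPM in Non surgery joints (log2 fold change -1.77). Ighm and Ighd fell in the same comparison. Cd72, a coreceptor found from the precursor stage on, rose to 30.8 CPM in Luc, against 11.9 CPM in Non surgery joints (log2 fold change 1.37). Bank1, a signalling adaptor, averaged 7.19 CPM in PC2 and 11.5 CPM in Luc joints (log2 fold change -0.68), and Ms4a1, which encodes CD20, 12.6 CPM in PC2 and 19.2 CPM in Luc joints (log2 fold change -0.60).

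B cell precursor genes had the largest median change of the B-lineage lists. All 9 rose in Luc against Non surgery joints (median log2 fold change 3.74), where 31.1% of all tested genes did. In PC2 against Luc joints 7 fell (18.6% of all tested genes), none rose (16.1%) and 2 did not pass (median -0.64). Their summed level was 164 to 167 CPM in PC2, 221 to 226 CPM in Luc and 55.4 to 63.4 CPM in Non surgery libraries. Igll1, part of the surrogate light chain that precursors display before they have a light chain, averaged 18.1 CPM in Luc and 0.987 CPM in Non surgery joints (log2 fold change 4.19). Rag1, one of the enzymes that join V segments, fell to 24.2 CPM in PC2, against 46.4 CPM in Luc joints (log2 fold change -0.94), and Dntt, which adds bases at the joins, fell to 10.3 CPM in PC2, against 20.9 CPM in Luc joints (log2 fold change -1.02). Precursors also transcribe Ighm, so the Ighm counts can hold RNA of several B cell stages, and their part in it was not tested. In PC2 against Non surgery joints, 8 precursor genes rose and 1 fell, 8 plasma cell genes rose and 4 fell, and 8 mature B cell genes rose and 7 fell. Of all tested genes 31.5% rose and 31.2% fell there.

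Of the germinal centre and class switch genes, 7 of 8 passed the filter. In Luc against Non surgery joints 3 rose (31.1% of all tested genes did), 2 fell (27.7%) and 2 did not pass. In PC2 against Luc joints 1 rose (16.1% of all tested genes), none fell (18.6%) and 6 did not pass. Gcsam, a germinal centre B cell adaptor, fell to 5.56 CPM in Luc, against 20.1 CPM in Non surgery joints (log2 fold change -1.86), and S1pr2, which keeps B cells in germinal centres and is also made elsewhere, rose to 20.3 CPM in Luc, against 12.2 CPM in Non surgery joints (log2 fold change 0.74). Of the 6 lymph node stroma and vessel genes, Ccl21a, Ccl19, Glycam1 and Madcam1 did not pass the filter, with 0 to 7 counts per library. The other 2 were Lyve1 and Cxcl13. The list summed to 57.3 to 60.8 CPM in PC2, 52.0 to 57.2 CPM in Luc and 32.4 to 38.5 CPM in Non surgery libraries. Most of that sum was Lyve1, at 55.2, 50.4 and 51.8 CPM in Luc and 33.6, 30.1 and 29.0 CPM in Non surgery libraries. Cxcl13 went the other way, at 1.77, 1.11 and 1.35 CPM in Luc and 4.56, 4.03 and 3.36 CPM in Non surgery libraries. Of 10 T cell genes, 1 rose (31.1% of all tested genes did), 6 fell (27.7%) and 3 did not pass in Luc against Non surgery joints. They summed to 41.0 to 45.2 CPM in PC2, 33.8 to 38.0 CPM in Luc and 61.7 to 64.5 CPM in Non surgery libraries.

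**Figure D5:**
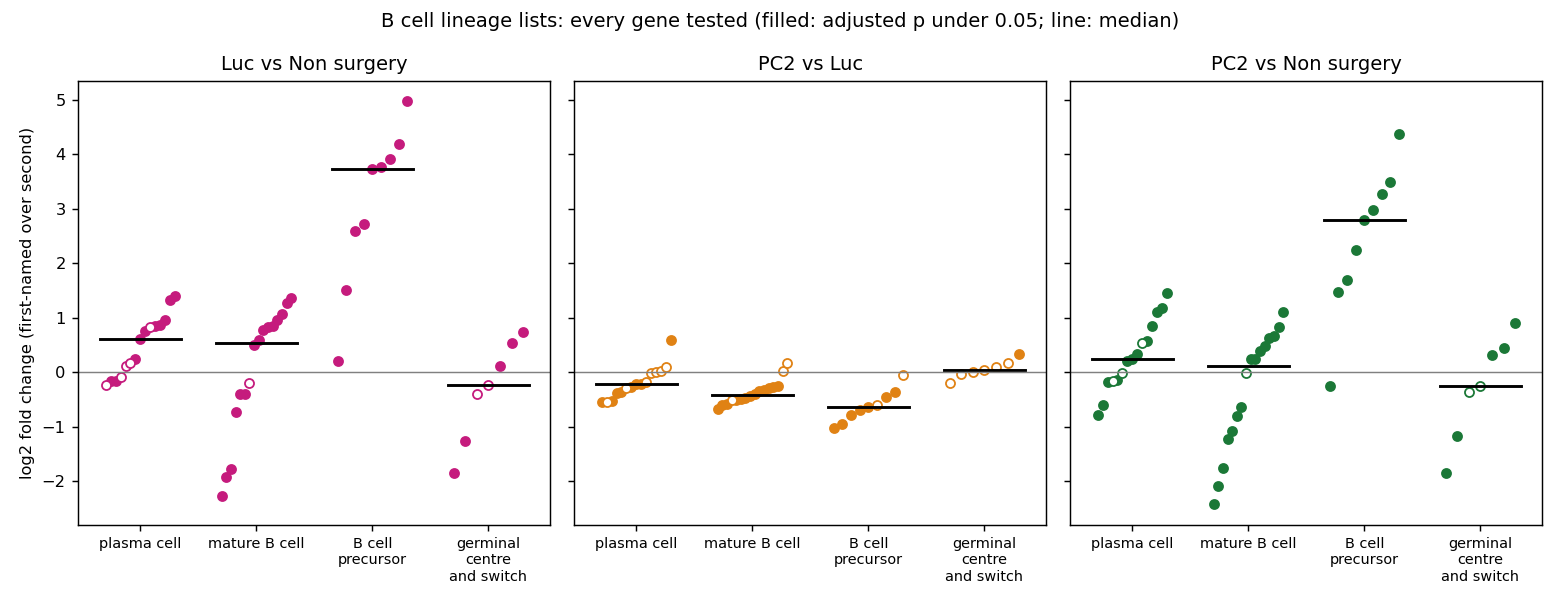
Log2 fold change of each tested gene (points) in the B-lineage lists for the 3 comparisons, with filled points for genes past an adjusted p of 0.05 and bars at the list median. In Luc against Non surgery joints the medians are 0.61 for plasma cell, 0.54 for mature B cell and 3.74 for precursor genes, and in PC2 against Luc joints they are -0.22, -0.42 and -0.64.

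As a description of pattern, the genes outside the immunoglobulin loci with the smallest Euclidean distance of centred log2 CPM to each member over the 9 libraries were taken from 15317 candidates. They were Phlda3, Clip1 and Tcap for Ighm (nearest distance 0.139), Tsc22d3, Vcam1 and Itga2b for Ighd (0.189), Glcci1, Zbp1 and Plk3 for Ighg1 (0.370) and Stx6, Hip1 and Kdm1a for Ighg2b (0.0816). For Ighg2c they were H2-Q6, H2-Aa and Skil (0.0782), for Ighg3 Mss51, Myom3 and Otog (0.692) and for Igha Coro2a, F5 and Cpt1a (0.139). Igkc was nearest to Dnah8, Sla and Pappa (0.175), Iglc2 to Tbrg1, Tanc2 and Man1c1 (0.277) and Jchain to Nipbl, Ranbp2 and Casp8ap2 (0.145). The 9 libraries come from 3 pools, so likeness means little more than a similar level in 3 mixtures. Ighg3 had the most distant nearest gene of the 10.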

How the data were processed

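RNA from knee joints was sequenced in 3 libraries each of PC2, Luc and Non surgery joints, and, per the labels' protocols, the libraries of a group repeat 1 RNA mixture and were made with a NEBNext Ultra kit. The values are whole-number read counts per gene as deposited by the authors. The submitters' processing notes name HISAT2, HTSeq, DESeq2 and the mm10 build, with no versions. The annotation release, strand setting and read length are not given in the sources used here, and reads from a gene and an antisense partner cannot be told apart. The 5 summary lines of each file were left out. Of 53379 gene IDs, 53274 matched GENCODE M21, from which names, exon lengths and sequences were taken.

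Counts were fitted with edgeR 4.0.16 in R 4.3.3 (quasi-likelihood F test, TMM factors, filterByExpr with a minimum count of 10, all 9 libraries in 1 fit, group as the only term, two-sided, Benjamini-Hochberg over 17478 genes). Calls are at an adjusted p of 0.05. TMM factors were 1.03 to 1.04 in PC2 and Luc and 0.922 to 0.933 in Non surgery libraries. Libraries of a group differed by more than sampling noise (chi-square per degree of freedom 3.94 to 8.68), so none was counted as a duplicate. The code was tested on simulated data. A pseudocount of 0.1 CPM was used for pattern distances, and shares were compared by exact permutation tests (scipy 1.17.1). Alternatives were size factors as in DESeq2 1.42.0, library size only, no low-count filter, DESeq2's test, the 2 compared groups alone, a table without muscle, mitochondrial and hemoglobin genes, a replicate block, and each library left out.

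The 10 genes and the companion lists were chosen with earlier results of these data known. Named in the text were the 10 genes, up to 4 genes per list and comparison with the largest fold change past the threshold and a mean of at least 1 CPM, the 3 most abundant V segments per locus, and the 3 nearest genes per member. Not every gene this rule allows is described.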

Additional observations from a re-analysis of the deposited data

How the results depend on the processing

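Of 30 member log2 fold changes, 25 kept their direction and their side of the adjusted p threshold of 0.05 under every alternative run, as did the counts of members in each direction (within 1.5 times) and the directions of the 24 share differences. In Luc against Non surgery joints, scaling by library size only turned Igha to a log2 fold change of 0.0805 (adjusted p = 0.0771) and Jchain to 0.119 (adjusted p = 0.0107), the range over all their alternatives being -0.119 to 0.0805 for Igha and -0.0869 to 0.119 for Jchain. That scaling moved the median of all genes to 0.19 in this comparison and 0.17 in PC2 against Non surgery joints. It gave 7754 higher and 3304 lower genes in Luc against Non surgery joints, where TMM gave 5431 and 4848, and 7607 and 3761 in PC2 against Non surgery joints, where TMM gave 5505 and 5447. Igha in Luc against Non surgery joints was called lower by 7 of 13 alternatives: RLE factors (adjusted p = 0.0297), no low-count filter (0.023), the 2 groups alone (0.0297), the table without muscle, mitochondrial and hemoglobin genes (0.0481), the replicate block (0.0492), DESeq2 (0.0196) and leaving out Luc replicate 2 (0.0159). The replicate numbers do not pair the samples, since correlations of same-numbered libraries ran from -0.027 to 0.057. With a replicate block the members that fell numbered 5 in Luc against Non surgery and 7 in PC2 against Non surgery joints, without it 4 and 6, and those that rose stayed at 4 and 3. In PC2 against Luc joints the block left 1 riser and 7 fallers. Shares with the shorter transcript length, and a lambda share with Iglc1 and Iglc3, were added after seeing the data and left every direction as it was, and the lambda differences became 0.57 points in Luc against Non surgery, 0.809 in PC2 against Luc (exact permutation p = 0.2) and 1.38 in PC2 against Non surgery joints. Depth limits Ighg3 and Iglc2, which had 56 to 74 counts in Luc libraries and 66 to 76 in Non surgery libraries, and 3 technical repeats of 1 pool give no estimate of the spread between mice.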

Other observations

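Receptors that bind the antibody tail were also looked at. Of 11 Fc and immunoglobulin receptor genes 10 passed the filter, Pigr being the exception. In Luc against Non surgery joints 3 rose (31.1% of all tested genes did), 5 fell (27.7%) and 2 did not pass, with a median log2 fold change of -0.19. PC2 against Luc joints had 1 riser (16.1%), 5 fallers (18.6%) and 4 genes not passed, with a median of -0.09. Ms4a2 and Fcer1a, subunits of the high-affinity IgE receptor of mast cells and basophils, fell in Luc joints. Ms4a2 averaged 5.50 CPM in Luc and 14.4 CPM in Non surgery joints (log2 fold change -1.39), and Fcer1a 2.11 CPM in Luc and 3.84 CPM in Non surgery joints (log2 fold change -0.86). Fcgrt, the neonatal Fc receptor that protects IgG from breakdown, rose to 118 CPM in Luc, against 71.9 CPM in Non surgery joints (log2 fold change 0.72). In PC2 against Luc joints Fcgr1, the high-affinity IgG receptor of macrophages, fell to 8.83 CPM in PC2, against 13.2 CPM in Luc joints (log2 fold change -0.58), and Fcgr4, which binds IgG2, fell to 12.3 CPM in PC2, against 16.4 CPM in Luc joints (log2 fold change -0.42).

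Of 13 cytokine genes linked to B cell survival and switching, 9 passed the filter, and Il5, Il21, Ifng and Cd40lg did not. In Luc against Non surgery joints 5 rose (31.1% of all tested genes did), 1 fell (27.7%) and 3 did not pass. In PC2 against Luc joints 1 rose (16.1% of all tested genes), 3 fell (18.6%) and 5 did not pass. Il6, a plasma cell survival cytokine, averaged 1.19 CPM in PC2, 5.45 CPM in Luc and 0.786 CPM in Non surgery joints (log2 fold change -2.19 in PC2 against Luc and 2.78 in Luc against Non surgery joints). Tnfsf13b, which encodes the B cell survival factor BAFF, averaged 14.8 CPM in PC2, 15.2 CPM in Luc and 5.68 CPM in Non surgery joints. It rose in Luc against Non surgery joints (log2 fold change 1.41) and did not pass in PC2 against Luc joints (log2 fold change -0.04, adjusted p = 0.841). Cxcl13, the chemokine that draws B cells into follicles, fell to 1.41 CPM in Luc, against 3.98 CPM in Non surgery joints (log2 fold change -1.49). Cxcl12, which holds B precursors and plasma cells in marrow, had 1034 CPM in PC2 and 1121 CPM in Luc joints (log2 fold change -0.12).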
